A study of Rattus norvegicus with 18 samples.

Results

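The colon of rats was compared between day 7 and day 5 of colitis induced with TNBS (trinitrobenzene sulfonic acid), which binds to proteins of the bowel wall and so makes them targets of immune cells. The comparison took every sample titled TNBS day 7 and every sample titled TNBS day 5, which gave 6 of the 18 samples of the series, 3 rats per day, each read on 1 Affymetrix Rat Genome 230 2.0 array. All 6 rats had received 1 enema of 10 mg TNBS in 50% ethanol on day 0, and no group received ethanol alone. The rats had been selected for the arrays on inflammatory markers, namely myeloperoxidase activity, loss of body weight and the ratio of colon weight to length, so the groups are not a random draw of treated rats. RNA came from homogenised full-thickness colon, and the sources used here give no strain, age or sex. The arrays of days 2 and 14 (3 rats each, same treatment) entered only the estimate of spread and the time course. The 6 saline controls were left out of the main fit and entered only an alternative fit of all 18 arrays, through the estimate of spread.

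In a wounded bowel wall, fibroblasts and smooth muscle cells lay down collagens, elastic fibre proteins and proteoglycans, which are crosslinked and later trimmed by proteases. Smooth muscle of the bowel contracts through actin and myosin filaments that are anchored to the membrane and set going by calcium. Cell division in colon belongs mainly to the crypt epithelium, and in inflamed tissue also to stromal, vascular and immune cells, and its genes are switched on in waves for DNA replication and then for mitosis. In bulk tissue, fewer cells of a type and less RNA per cell cannot be told apart. The study's question, as far as its design states it, was the course of the colitis over time.

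No gene passed the test between the 2 days, while the matrix and smooth muscle lists lay mostly higher on day 7 and the cell division lists mostly lower. With limma's moderated test over 31042 probe sets and Benjamini-Hochberg adjustment, 0 probe sets were called higher and 0 lower (0% in each direction, adjusted p under 0.05), with a smallest adjusted p of 0.0818. At an unadjusted p under 0.05 there were 643 higher (2.07%) and 926 lower (2.98%). A share of 0.05 over both directions together is what no difference at all would give. With all 18 arrays in the fit limma called 5 higher (0.0161%) and 1 lower (0.00322%), with a trended and robust prior 4 and 1, and with array weights 5 and 3. Leaving out day 7 replicate 2 gave 5 and 2 and leaving out day 5 replicate 2 gave 0 and 1, while leaving out any of the other 4 arrays gave 0 and 0. Differences below are day 7 minus day 5 on the deposited log2 scale, given with the standard error of limma (SE, n = 3 arrays per day), and array values are in the order of replicates 1 to 3. A gene is read from 1 probe set, and levels of different genes are not set against each other because probe sets differ in how strongly they bind. Because nothing was called, a gene is described by whether its 3 day 7 arrays lie entirely above or below its 3 day 5 arrays. Of 14217 genes, 523 (3.68%) lay entirely higher on day 7 and 870 (6.12%) entirely lower. With no difference between the days, 3 against 3 arrays would give a share of 0.1 over both directions together. The median difference of all genes was -0.02, with quartiles at -0.13 and 0.11.

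Against that background, 24 of 111 genes of matrix structure and processing (21.6%) lay entirely higher on day 7 and 2 (1.8%) entirely lower, with a median difference of 0.43. Of 79 smooth muscle genes, 12 (15.2%) lay entirely higher and 1 (1.27%) entirely lower, with a median of 0.37. Of 106 genes of DNA replication and mitosis, 0 lay entirely higher and 36 (34%) entirely lower, with a median of -0.34. In sign alone, 96 of the 111 matrix genes and 70 of the 79 muscle genes had a higher mean on day 7, and 103 of the 106 division genes a lower one. Among all genes, 6481 of 14217 had a higher mean and 7736 a lower one. The plot of differences shows the same shift for 5 of the lists.

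**Figure D1:**
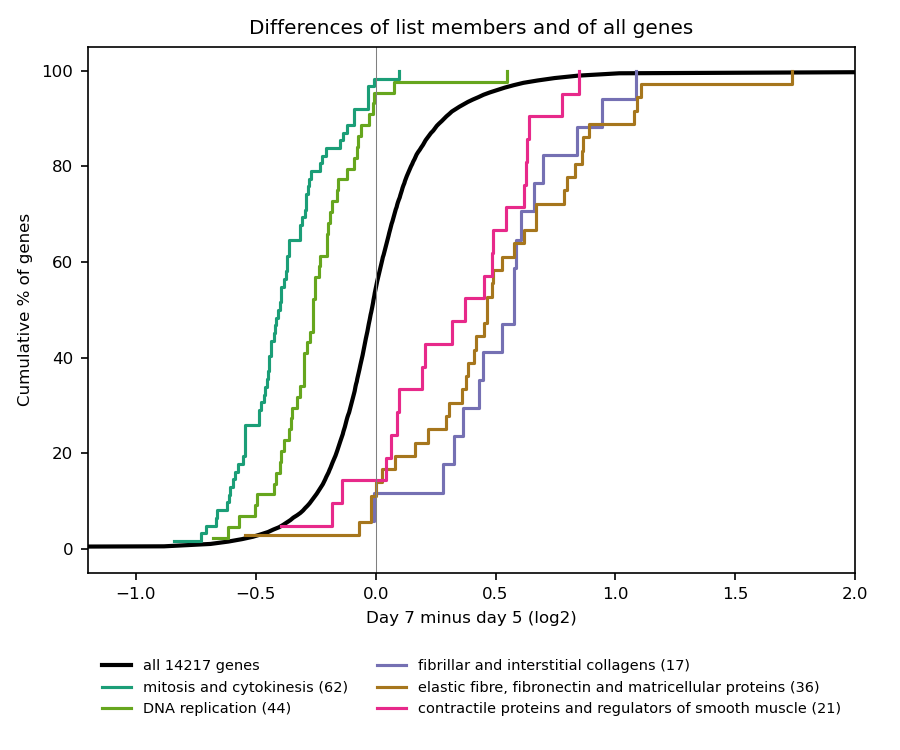
Cumulative share of genes (vertical axis, percent) against the day 7 minus day 5 difference on the log2 scale (horizontal axis), for all 14217 genes in black and 5 gene lists in colour, with the number of genes in brackets. The curve of mitosis and cytokinesis lies to the left of that of all genes (medians -0.40 and -0.02) and the curve of the collagens to the right (median 0.58).

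The 6 arrays were alike as whole profiles, and day 5 replicate 2 stood apart in several lists. Medians of all TNBS arrays lay between 5.03 and 5.08, against 4.27 to 4.30 in the saline controls, so no level is set beside control here. Day 5 and day 7 arrays correlated at 0.973 to 0.983 over probe sets. Averaged for each array, the correlation was 0.974 to 0.985 with arrays of its own day and 0.977 to 0.981 with the other day. Whole profiles thus did not set the 2 days apart. Day 5 replicate 2 correlated at 0.974 with its own day and at 0.979 with day 7. RNA quality was read as the 3 prime minus 5 prime difference of control probe sets, which for Gapdh was 0.69 ± 0.03 (SD, n = 3) on day 5 and 0.59 ± 0.05 on day 7, and that of beta-actin 1.35 ± 0.07 and 1.34 ± 0.06. The exact permutation p was 0.2 and 0.7 (two-sided), where 0.1 is the smallest that 3 against 3 arrays allow. Their part in the differences was not tested. The same fit gave 0 calls in either direction for day 5 against day 2 (1094 higher, 3.52%, and 1242 lower, 4%, at an unadjusted p under 0.05), and 61 higher (0.197%) and 261 lower (0.841%) for day 14 against day 7.

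Averaged over a list and set against the mean of the 6 arrays, the matrix genes stood at -0.49, 0.08 and -0.17 on day 5 against 0.34, 0.07 and 0.18 on day 7, on the log2 scale. The ranges overlapped, since day 5 replicate 2 lay just above day 7 replicate 2. The smooth muscle genes stood at -0.12, -0.40 and 0.01 on day 5 against 0.40, 0.05 and 0.06 on day 7. Here the days did not overlap, and day 5 replicate 2 was the lowest array. The division genes stood at 0.07, 0.40 and 0.03 on day 5 against -0.03, -0.18 and -0.29 on day 7, again without overlap, and day 5 replicate 2 was the highest array. Because each list is centred on these 6 arrays, 0 is set by the centring and only the order of the arrays is read.

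Single arrays weighed on these figures. For matrix the median was 0.23 without day 5 replicate 1, and the count entirely higher was 60 without day 5 replicate 2. For smooth muscle the median was 0.19 without day 5 replicate 2 and 0.20 without day 7 replicate 1, and the count entirely higher was 23 without day 5 replicate 3, 23 without day 7 replicate 2 and 24 without day 7 replicate 3. For cell division the median was -0.21 without day 5 replicate 2, and the count entirely lower was 61 without day 7 replicate 1. Counts grow by construction when an array is left out, and the background grows with them. Without day 5 replicates 1, 2 and 3 in turn it was 6.25%, 11.8% and 6.12% higher, and 10.6%, 17.7% and 9.31% lower. Without day 7 replicates 1, 2 and 3 in turn it was 9.71%, 10.3% and 5.75% higher, and 11.1%, 11.9% and 10.1% lower. The medians of all 3 groups kept their sign without any 1 of the 6 arrays. The plot of list means shows every array.

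**Figure D2:**
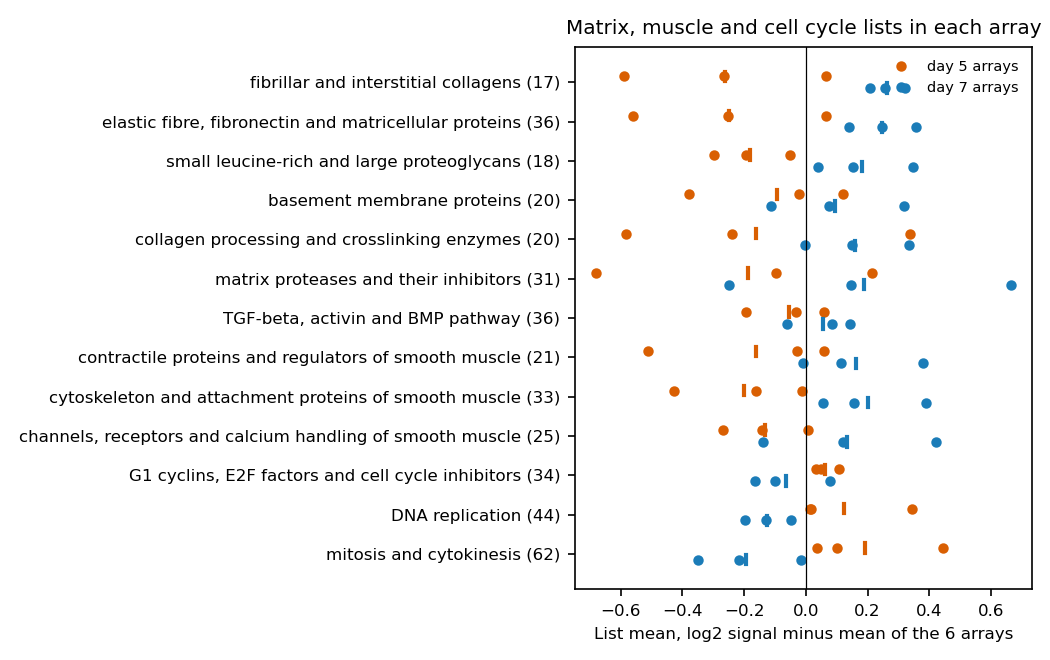
Mean of each gene list in each array (horizontal axis, log2 signal minus the mean of the 6 arrays), day 5 in orange and day 7 in blue, with a vertical tick at the mean of 3 arrays and the number of genes in brackets. The collagen means lie between 0.21 and 0.32 on day 7 and reach 0.07 at most on day 5, and the mitosis means lie between -0.35 and -0.02 on day 7 and between 0.04 and 0.44 on day 5.

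Mitosis and cytokinesis genes had the lowest median of the 13 matrix, muscle and cell cycle lists. Of 62 measured genes, 61 had a lower mean on day 7, 26 (41.9%) lay entirely lower and 0 entirely higher, and the median difference was -0.40. The median was -0.25 without day 5 replicate 2. Genes of this class are known to be held down outside the dividing cell by a repressor complex at a CHR element (letters TTTGAA) and to be driven through CCAAT boxes upstream. In the 250 bases before the RefSeq start of the gene (build GRCr8), on either strand, 27 of the 55 members with a promoter in the table held a CHR element (49.1%, against 11.0% of 11734 measured genes), 43 held a CCAAT box (78.2%, against 35.1%) and 26 held both (47.3%, against 4.07%). These counts describe the promoters of the list and say nothing of the 2 days. Within the list, the 27 members with a CHR element had a median difference of -0.40 and the 28 without it -0.44, and 10 and 13 of them lay entirely lower. The 43 members with a CCAAT box had a median of -0.41 and the 12 without it -0.45, and 14 and 9 of them lay entirely lower. Neither element thus went with a lower median within the list, a description with no test. The windows below show how the elements lie in 5 members that were entirely lower on day 7 and hold both, taken by the smallest p. They are RefSeq sequence, 5′ to 3′ on the gene's strand with 12 flanking bases where the window allows, and capitals mark the CCAAT box (or ATTGG, its other strand) and the CHR element (or TTCAAA).
Kif23: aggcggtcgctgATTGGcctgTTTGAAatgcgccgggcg
Ect2: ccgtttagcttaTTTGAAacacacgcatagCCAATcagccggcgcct
Kif22: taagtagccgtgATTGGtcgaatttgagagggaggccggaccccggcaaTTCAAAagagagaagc
Ccnb2: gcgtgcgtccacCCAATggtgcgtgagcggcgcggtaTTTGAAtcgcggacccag
Spc25: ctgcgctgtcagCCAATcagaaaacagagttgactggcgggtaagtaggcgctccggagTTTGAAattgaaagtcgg

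These windows lie on the minus strand at chr8:71320646-71320684, chr2:111966747-111966793, chr1:191080879-191080943, chr8:79981684-79981738 and chr3:74396758-74396834 (GRCr8), upstream of the start of transcription. The 2 elements are 4 bases apart in Kif23, 12 in Ect2, 32 in Kif22, 20 in Ccnb2 and 42 in Spc25. In Ect2 the CHR element comes first, and in the other 4 the CCAAT box does. Kif23, a kinesin of the central spindle that cytokinesis needs, measured 7.36, 7.27 and 7.44 on day 5 against 6.83, 6.12 and 6.60 on day 7. Its difference was -0.84 ± 0.18 (limma adjusted p 0.561), and both of its probe sets were lower. Ect2, the exchange factor that sets the contractile ring in place, measured 7.30, 7.58 and 7.26 on day 5 against 6.88, 6.52 and 6.61 on day 7, a difference of -0.71 ± 0.18. Racgap1, the partner of Kif23 and Ect2 at the midzone, measured 7.67, 7.78 and 7.51 on day 5 against 7.16, 7.11 and 6.92 on day 7, a difference of -0.59 ± 0.15. These 3 genes were lower in every day 7 array than in any day 5 array. They were named for the smallest p of the list, so the lack of overlap goes with that choice.

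Kif22, a kinesin that moves chromosomes, differed by -0.62 ± 0.19. Ccnb2, a B-type cyclin of mitosis, differed by -0.55 ± 0.20, and Spc25, a kinetochore subunit, by -0.42 ± 0.22. These 3 were named after their values were seen, for their promoters. Melk, a kinase of dividing cells, measured 6.40, 6.46 and 6.43 on day 5 against 5.95, 5.73 and 5.62 on day 7, a difference of -0.66 ± 0.15. Its day 5 values are close together, and all day 7 values lie below them. Cdca3, a trigger of mitotic entry, measured 8.17, 8.46 and 8.28 on day 5 against 7.98, 7.53 and 7.58 on day 7, a difference of -0.61 ± 0.18. Mki67, the proliferation marker Ki-67, measured 8.79, 9.01 and 8.43 on day 5. Its day 7 replicate 1, at 8.49, lay above the lowest of these, the other 2 day 7 arrays lay below all of them, and the difference was -0.58 ± 0.25. Top2a, the topoisomerase that untangles chromosomes, overlapped as well, at -0.49 ± 0.20. Cdk1, the kinase that drives mitosis, stood at 7.72, 8.30 and 7.63 on day 5 against 7.81, 7.83 and 7.33 on day 7. At -0.23 ± 0.31, it overlapped, with only day 7 replicate 3 below all day 5 values.

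DNA replication genes lay mostly lower on day 7 as well. Of 44 measured genes, 42 had a lower mean, 10 (22.7%) lay entirely lower and 0 entirely higher, with a median of -0.26. The median was -0.16 without day 5 replicate 2, and the count entirely lower was 17 without day 5 replicate 1, 19 without day 5 replicate 3 and 22 without day 7 replicate 1. Tk1, thymidine kinase, which salvages thymidine for DNA, measured 7.37, 7.89 and 7.47 on day 5 against 7.10, 6.88 and 6.72 on day 7, a difference of -0.68 ± 0.17, and all 3 of its probe sets were lower. Dut, which keeps uracil out of DNA, differed by -0.51 ± 0.20, though only 1 of its 2 probe sets was lower. Tyms, thymidylate synthase, overlapped between days at -0.49 ± 0.19. Rfc5, a subunit of the clamp loader, measured 7.74, 7.90 and 7.73 on day 5 against 7.58, 7.02 and 6.93 on day 7, a difference of -0.61 ± 0.20. Rfc1, its large subunit, differed by -0.32 ± 0.14, but only 1 of its 3 probe sets was lower. Pcna, the sliding clamp itself, stood at 10.08, 10.82 and 10.04 on day 5 against 10.85, 10.09 and 10.23 on day 7. It overlapped at 0.08 ± 0.29, and its sign turned when 1 array was left out (range -0.15 to 0.33).

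The helicase that opens the DNA has 6 related subunits, Mcm2 to Mcm7, and all 6 had a lower mean on day 7. Mcm2 measured 7.16, 7.67 and 7.26 on day 5 against 7.08, 6.92 and 6.91 on day 7, a difference of -0.39 ± 0.25. Mcm5 measured 6.91, 7.16 and 7.14 on day 5 against 6.73, 6.66 and 6.61 on day 7, a difference of -0.40 ± 0.27. These 2 lay entirely lower on day 7, and the other 4 overlapped between days. The differences were -0.26 ± 0.42 for Mcm3, -0.57 ± 0.29 for Mcm4, -0.38 ± 0.24 for Mcm6 and -0.30 ± 0.24 for Mcm7 (Mcm3 to Mcm7 were named after their values were seen, to complete the complex). Replication genes are known as targets of E2F factors. A strict E2F motif (TTTCCCGC, TTTCGCGC, TTTGCCGC or TTTGGCGC, either strand) lay in the 250 upstream bases of 10 of 40 members with a promoter (25%, against 2.88% of all). The 10 with it had a median difference of -0.28 and the 30 without it -0.26. The motif of Mcm2, in capitals, lies just before the start of transcription at chr4:122918095-122918116 (GRCr8, minus strand).
Mcm2: gacccggttttcGCGCGAAAac

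The regulators upstream of both waves were split. Of 34 G1 cyclins, E2F factors and cell cycle inhibitors, 3 (8.82%) lay entirely higher on day 7 and 6 (17.6%) entirely lower, with a median of -0.11. The median was -0.05 without day 5 replicate 1 and -0.20 without day 7 replicate 1, and the count entirely lower was 11 without day 5 replicate 2 and 12 without day 7 replicate 1. Foxm1, the factor that drives mitotic genes, measured 6.10, 6.21 and 5.96 on day 5 against 5.73, 5.39 and 5.54 on day 7, a difference of -0.53 ± 0.14. E2f1, an activating E2F, measured 5.89, 6.03 and 6.15 on day 5 against 5.78, 5.59 and 5.61 on day 7, a difference of -0.36 ± 0.13. E2f8, a repressing E2F that is itself an E2F target, differed by -0.68 ± 0.24, and Ccne1, cyclin E1, by -0.66 ± 0.24. These 4 lay entirely lower. Myc, a driver of growth, lay entirely higher instead, at 7.01, 7.19 and 7.24 on day 5 against 7.33, 7.49 and 7.34 on day 7, a difference of 0.24 ± 0.10. Cdkn1a, the p21 inhibitor, stood at -0.21 ± 0.28 and overlapped, and its sign turned when 1 array was left out (range -0.59 to 0.08).

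Markers of epithelium and lymphocytes, which divide in colon, were read beside these genes. Of 20 epithelial markers, 18 had a lower mean on day 7 and 2 (10%, against 6.12% of all genes) lay entirely lower, with a median of -0.30. The median moved between -0.57 without day 5 replicate 2 and -0.14 without day 5 replicate 1. Their mean level ranged from 9.39 to 10.23 on day 5 and 9.22 to 9.79 on day 7. Ascl2, a factor of crypt stem cells, differed by -0.52 ± 0.19 and Epcam, a surface protein of all epithelium, by -0.13 ± 0.21. Both overlapped between days, and the sign of Epcam turned when 1 array was left out (range -0.36 to 0.01). Of 20 T and natural killer cell markers, 14 had a lower mean (median -0.21, mean level 4.67 to 5.20 on day 5 and 4.70 to 4.75 on day 7). The median moved between -0.25 without day 5 replicate 2 and 0.04 without day 5 replicate 1. B and plasma cell markers had a median of 0.01, which moved between -0.29 without day 7 replicate 1 and 0.44 without day 5 replicate 1. The part of these cells in the division genes was not tested.

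Genes of ribosome biogenesis and polyamine synthesis, which growing cells use, lay lower as well: 7 of 20 (35%) lay entirely lower and 0 entirely higher, with a median of -0.20 that moved between -0.23 without day 5 replicate 1 and -0.06 without day 5 replicate 2. Amd1, a rate-setting enzyme of polyamine synthesis, measured 9.19, 8.94 and 9.32 on day 5 against 8.51, 8.58 and 8.71 on day 7, a difference of -0.55 ± 0.17. Sms, spermine synthase, differed by -0.45 ± 0.13, also entirely lower.

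Fibrillar and interstitial collagens had the highest median of the 13 lists. Of 17 measured, 15 had a higher mean on day 7, 7 (41.2%) lay entirely higher and 0 entirely lower, with a median difference of 0.58. The median was 0.37 without day 5 replicate 1, and the count entirely higher was 13 without day 5 replicate 2. Col3a1, a main collagen of early scar, measured 12.31, 12.38 and 12.19 on day 5 against 12.82, 12.68 and 12.66 on day 7, a difference of 0.43 ± 0.22. Its 3 arrays of each day lay close together and apart from the other day. Col5a1, which starts collagen fibrils, measured 8.50, 9.24 and 9.03 on day 5 against 9.50, 9.49 and 9.54 on day 7, a difference of 0.59 ± 0.29. Col6a3, of the beaded filaments around cells, measured 10.34, 10.38 and 10.77 on day 5 against 11.29, 10.89 and 10.88 on day 7, a difference of 0.53 ± 0.22. Both also lay entirely higher. Col1a1, the main chain of type I collagen, stood at 11.06, 12.35 and 11.47 on day 5 against 11.90, 12.59 and 12.21 on day 7. Its day 5 replicate 2 lay above 2 of the day 7 arrays, and the difference was 0.61 ± 0.51. Col14a1, a fibril-associated collagen, differed by 0.84 ± 0.29 and Col5a3 by 1.09 ± 0.46, both with overlap.

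Elastic fibre, fibronectin and matricellular proteins followed. Of 36 measured, 32 had a higher mean, 9 (25%) lay entirely higher and 0 entirely lower, with a median of 0.47. The median was 0.27 without day 5 replicate 1, and the count entirely higher was 21 without day 5 replicate 2. Both fibrillins, the microfibril proteins that also hold latent TGF-beta, lay entirely higher. Fbn1 measured 7.91, 8.31 and 8.33 on day 5 against 9.09, 9.16 and 8.97 on day 7, a difference of 0.89 ± 0.21 (limma adjusted p 0.626). Fbn2 measured 3.81, 4.86 and 3.98 on day 5 against 4.98, 5.43 and 5.51 on day 7, a difference of 1.09 ± 0.26. Its day 5 values and its day 7 replicate 1 lay below the array medians. Day 5 replicate 2 was nearest to day 7 in Fbn2 but not in Fbn1. Postn, periostin, a matricellular protein of remodelling tissue, measured 10.49, 10.49 and 10.47 on day 5 against 11.30, 11.13 and 11.02 on day 7, a difference of 0.67 ± 0.24. The 3 day 5 arrays lay close together. Thbs2, a thrombospondin that tempers vessel growth, differed by 1.08 ± 0.40, and Mfap4, a microfibril partner, by 0.80 ± 0.30, both entirely higher. Fn1, fibronectin, stood at 10.55, 12.06 and 11.10 on day 5 against 12.34, 11.55 and 11.84 on day 7. It overlapped, with day 5 replicate 2 above 2 of the day 7 arrays, at 0.67 ± 0.41.

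Among 18 proteoglycans, 4 (22.2%) lay entirely higher and 1 (5.56%) entirely lower, with a median of 0.35. The count entirely higher was 8 without day 5 replicate 2. Aspn, asporin, a small leucine-rich protein that binds collagen and TGF-beta, measured 6.45, 6.52 and 6.65 on day 5 against 8.94, 8.71 and 7.51 on day 7. The difference of 1.85 ± 0.46 (adjusted p 0.659), or 3.61-fold, was the largest of the list. Dcn, decorin, which spaces collagen fibrils, measured 10.26, 10.38 and 10.11 on day 5 against 11.16, 10.92 and 10.83 on day 7, a difference of 0.72 ± 0.22. Sdc2, a cell-surface proteoglycan, differed by 0.48 ± 0.19, also entirely higher. Bgn, biglycan, overlapped at 0.53 ± 0.24. Omd, osteomodulin, was the member that lay entirely lower (-0.24 ± 0.10), at 3.17, 3.41 and 3.15 on day 5 against 3.03, 3.03 and 2.96 on day 7, well under the array medians.

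Basement membrane proteins did not all lie on the same side. Of 20 measured, 15 had a higher mean and 5 a lower one, with a median of 0.33. Of these, 2 (10%) lay entirely higher, or 1 with the mean over the probe sets of a gene. Entirely lower lay 1 (5%, against 6.12% of all genes). The median was 0.17 without day 5 replicate 1 and 0.17 without day 7 replicate 1, and the count entirely higher was 6 without day 5 replicate 2 and 4 without day 7 replicate 2. Lama3, a chain of the laminin under epithelia, measured 7.07, 6.75 and 7.46 on day 5 against 6.50, 6.32 and 6.61 on day 7, a difference of -0.62 ± 0.25, entirely lower. Lamb3, the beta chain of the same laminin, differed by -0.58 ± 0.28 with overlap. Lama2, the laminin chain around muscle, differed by 0.55 ± 0.26 and Col4a1, a chain of the common type IV collagen, by 0.66 ± 0.34, both with overlap. Col4a6, a minor type IV chain, stood at -0.37 ± 0.19.

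Of 20 enzymes and chaperones that process collagen, 19 had a higher mean, 2 (10%) lay entirely higher and 0 entirely lower, with a median of 0.30. With quantile normalization the count entirely higher was 1, and with the mean over the probe sets of a gene it was 1. The median was 0.13 without day 5 replicate 1, 0.61 without day 5 replicate 2 and 0.47 without day 7 replicate 2, and the count entirely higher was 12 without day 5 replicate 2 and 4 without day 7 replicate 2. Loxl2, a crosslinking lysyl oxidase, measured 7.16, 8.14 and 7.36 on day 5 against 8.75, 8.53 and 8.18 on day 7, a difference of 0.93 ± 0.46. Bmp1, the protease that trims procollagen, differed by 0.35 ± 0.16. Both lay entirely higher. Plod1 (0.46 ± 0.25) and Plod2 (0.66 ± 0.40), which hydroxylate collagen lysines, and Serpinh1 (0.52 ± 0.33), the collagen chaperone, overlapped. In all 3 of them day 5 replicate 2 lay among the day 7 arrays.

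Of 31 matrix proteases and inhibitors, 4 (12.9%) lay entirely higher and 1 (3.23%) entirely lower, with a median of 0.28. With quantile normalization the count entirely higher was 2. The median was 0.13 without day 5 replicate 1, 0.64 without day 5 replicate 2, 0.11 without day 7 replicate 1 and 0.44 without day 7 replicate 2, and the count entirely higher was 11 without day 5 replicate 2 and 10 without day 7 replicate 2. Mmp14, a membrane-bound collagenase that activates Mmp2, measured 9.85, 10.92 and 10.43 on day 5 against 11.18, 11.22 and 11.52 on day 7, a difference of 0.91 ± 0.26. Mmp2, a gelatinase of stromal cells, measured 8.54, 9.18 and 8.90 on day 5 against 9.47, 9.61 and 9.62 on day 7, a difference of 0.70 ± 0.31. This pair lay entirely higher together. Ctsb, a lysosomal cathepsin, differed by 0.27 ± 0.09, also entirely higher. Mmp3, stromelysin, stood at 4.04, 4.23 and 5.48 on day 5 against 6.62, 4.39 and 6.44 on day 7. Day 7 replicate 2 lay within day 5, and the difference was 1.24 ± 0.67. Timp1, the main inhibitor, stood at 10.44, 11.80 and 10.76 on day 5 against 11.63, 10.68 and 11.05 on day 7. Its difference was 0.12 ± 0.52, and its sign turned when 1 array was left out (range -0.16 to 0.52).

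The TGF-beta, activin and BMP pathway, which drives fibroblasts to make matrix, lay near the background. Of 36 measured genes, 3 (8.33%) lay entirely higher and 1 (2.78%) entirely lower, with a median of 0.06. The median was 0.04 without day 5 replicate 1, 0.13 without day 5 replicate 3, 0.10 without day 7 replicate 1 and 0.12 without day 7 replicate 2, and the count entirely higher was 5 without day 5 replicate 1, 5 without day 5 replicate 2, 5 without day 7 replicate 1 and 6 without day 7 replicate 2. Among the ligands, Tgfb1 stood at 0.32 ± 0.36, Tgfb2 at -0.05 ± 0.25 and Tgfb3 at 0.68 ± 0.40, all with overlap (named after their values were seen, as the 3 TGF-beta genes). The sign of Tgfb2 turned when 1 array was left out (range -0.23 to 0.13). Bmp2, a BMP ligand made in surface epithelium, measured 9.39, 7.75 and 9.44 on day 5 against 7.71, 7.23 and 7.75 on day 7. It lay entirely lower, at -1.30 ± 0.46, and day 5 replicate 2 was close to the day 7 arrays. Bmp5, another ligand, stood at -0.55 ± 0.31 with overlap. Among the targets, Tgfbi, a matrix protein that TGF-beta induces, measured 10.09, 10.82 and 10.48 on day 5 against 11.02, 10.94 and 11.02 on day 7, a difference of 0.53 ± 0.24, entirely higher. Id1 (-0.41 ± 0.21) and Id2 (0.68 ± 0.35), which BMP signals induce, overlapped and had opposite signs, and only 1 of the 2 probe sets of Id2 was higher.

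Cell type markers were read beside the matrix genes. Of 17 fibroblast markers, 16 had a higher mean on day 7 and 3 (17.6%) lay entirely higher, with a median of 0.39 and a mean level of 7.77 to 8.23 on day 5 and 8.30 to 8.44 on day 7. The list shares Dcn, Lum, Col1a1 and Col1a2 with the matrix lists. Dpt, dermatopontin, a fibroblast marker outside them, overlapped at 0.39 ± 0.17. Of 17 macrophage and monocyte markers, 13 had a higher mean (median 0.49, mean level 7.99 to 8.88 on day 5 and 8.60 to 8.72 on day 7) and 0 lay entirely higher. Their median moved between 0.20 without day 5 replicate 3 and 0.69 without day 5 replicate 2. Of 10 neutrophil markers, 9 had a higher mean (median 0.49, mean level 7.11 to 8.38 on day 5 and 7.71 to 8.65 on day 7), and the median moved between 0.17 without day 7 replicate 1 and 1.04 without day 5 replicate 2. All 10 pericyte markers (median 0.31, mean level 6.13 to 6.91 on day 5 and 6.45 to 7.26 on day 7) and all 10 adipocyte markers (median 0.41, mean level 5.82 to 6.68 on day 5 and 6.04 to 7.83 on day 7) had a higher mean, with 0 entirely higher. These medians moved between -0.03 without day 5 replicate 1 and 0.50 without day 7 replicate 2 for pericytes and between 0.01 without day 7 replicate 2 and 0.81 without day 7 replicate 1 for adipocytes. The scale has no true 0, so no marker can be called absent. The part of these cells in the matrix genes was not tested.

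**Figure D3:**
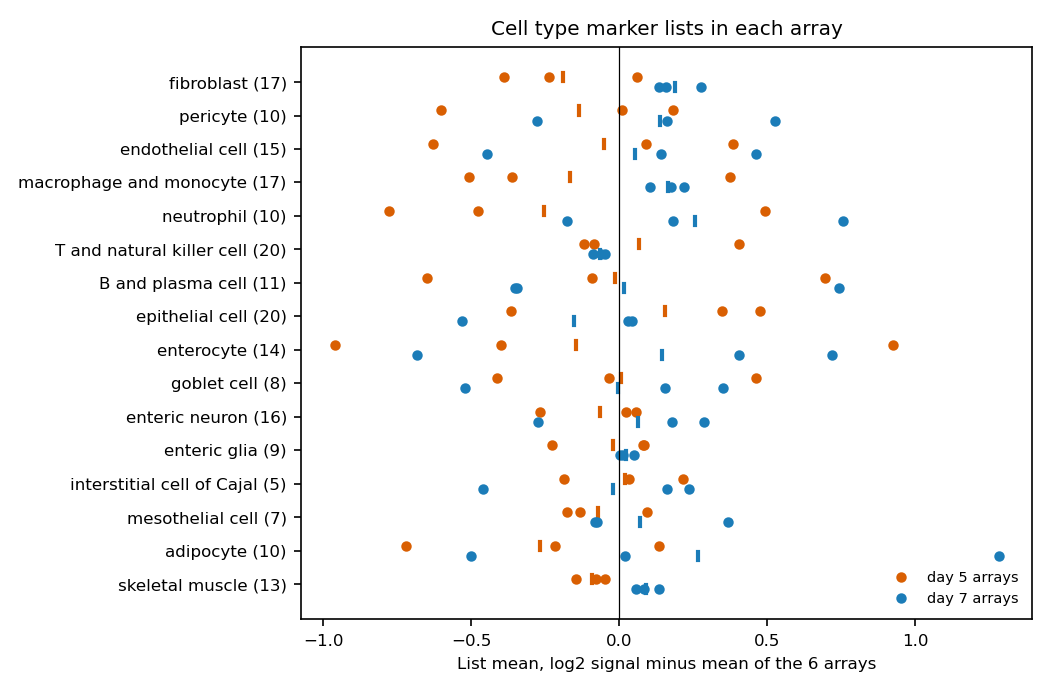
Mean of each cell type marker list in each array (horizontal axis, log2 signal minus the mean of the 6 arrays), day 5 in orange and day 7 in blue, with a vertical tick at the mean of 3 arrays and the number of genes in brackets. Fibroblast and skeletal muscle means are higher in all day 7 arrays than in any day 5 array, while most other lists overlap and day 5 replicate 2 lies far out in several, such as neutrophil (0.49) and enterocyte (-0.96). Of the 13 skeletal muscle genes, 7 had a higher mean on day 7 and 6 a lower one, and the largest difference was that of Acta1 (2.01).

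Contractile genes of smooth muscle lay mostly higher on day 7. Of 21 contractile proteins and regulators, 18 had a higher mean, 5 (23.8%) lay entirely higher and 0 entirely lower, with a median of 0.37. The median was 0.16 without day 5 replicate 2 and 0.19 without day 7 replicate 1, and the count entirely higher was 9 without day 5 replicate 3 and 10 without day 7 replicate 3. Actg2, the gamma-actin of enteric smooth muscle, measured 12.16, 11.32 and 12.07 on day 5 against 12.80, 12.75 and 12.34 on day 7, a difference of 0.78 ± 0.26. Myl9, the regulatory myosin light chain, measured 11.18, 10.21 and 11.08 on day 5 against 11.81, 11.66 and 11.54 on day 7, a difference of 0.85 ± 0.31. Tagln, the actin-binding protein SM22, measured 12.01, 11.60 and 12.19 on day 5 against 12.78, 12.57 and 12.30 on day 7, a difference of 0.62 ± 0.23. In all 3 genes the lowest value was that of day 5 replicate 2, and the days did not overlap. Cald1, caldesmon, lay entirely higher as well, at 0.63 ± 0.29, with 2 of its 3 probe sets higher. Acta2, the actin of vessels and myofibroblasts, stood at 9.71, 9.80 and 10.50 on day 5 against 11.27, 10.78 and 9.88 on day 7. It overlapped, at 0.64 ± 0.37. Myh11, the smooth muscle myosin heavy chain, stood at 12.14, 11.10 and 12.32 on day 5 against 12.60, 12.35 and 12.23 on day 7. Its day 5 replicate 3 lay within day 7, and the difference was 0.54 ± 0.31. Tpm1, a tropomyosin, overlapped at 0.48 ± 0.25, although all 7 of its probe sets were higher.

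Of 33 cytoskeleton and attachment proteins, 32 had a higher mean, 4 (12.1%) lay entirely higher and 0 entirely lower, with a median of 0.41. With quantile normalization the count entirely higher was 2. The median was 0.20 without day 5 replicate 2 and 0.23 without day 7 replicate 1, and the count entirely higher was 8 without day 5 replicate 2, 10 without day 5 replicate 3, 7 without day 7 replicate 2 and 10 without day 7 replicate 3. Itga8, the alpha 8 integrin chain that binds fibronectin on smooth muscle and myofibroblasts, measured 3.97, 4.19 and 3.86 on day 5 against 4.82, 5.27 and 5.10 on day 7. The difference of 1.06 ± 0.13, or 2.08-fold, had the smallest p of all probe sets (adjusted p 0.0818), and both of its probe sets were higher. All 3 day 5 values lay below the array medians. Cryab, a small heat shock chaperone of desmin, measured 7.33, 7.87 and 7.02 on day 5 against 7.97, 9.22 and 7.94 on day 7, a difference of 0.97 ± 0.45, entirely higher. Ilk, a kinase at integrin attachments, differed by 0.25 ± 0.13, entirely higher. Des, desmin, stood at 0.57 ± 0.32, Flna, filamin A, at 0.41 ± 0.22 and Hspb1, a small heat shock protein, at 0.75 ± 0.36, all with overlap.

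Of 25 channels, receptors and calcium-handling proteins, 3 (12%) lay entirely higher and 1 (4%) entirely lower, with a median of 0.30. The median was 0.20 without day 5 replicate 2 and 0.10 without day 7 replicate 1, and the count entirely higher was 5 without day 5 replicate 1 and 9 without day 7 replicate 2. Slc8a1, the sodium-calcium exchanger, measured 7.58, 7.32 and 7.03 on day 5 against 7.95, 8.37 and 8.04 on day 7, a difference of 0.81 ± 0.26. Casq2, which stores calcium in the reticulum, measured 5.89, 5.93 and 6.05 on day 5 against 6.41, 6.64 and 6.09 on day 7, a difference of 0.42 ± 0.16. Itpr1, a calcium release channel, differed by 0.31 ± 0.18. These 3 lay entirely higher. Chrm3, the muscarinic receptor through which nerves contract the bowel, was the member that lay entirely lower, at 5.16, 4.96 and 4.98 on day 5 against 4.78, 4.75 and 4.92 on day 7. Its difference was -0.22 ± 0.12, and 1 of its 2 probe sets was higher. Kcnma1, a calcium-activated potassium channel, overlapped at 0.58 ± 0.34, with 2 of its 3 probe sets higher.

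A CArG box, the site known for serum response factor at contractile genes, lay in the 250 upstream bases of 1 of 16 contractile members with a promoter (6.25%) and of 3 of 28 cytoskeleton members (10.7%), and of 0 of 25 channel and receptor members (0%), against 1.22% of all. In the mitosis list it lay in 2 of 55 (3.64%). Markers of skeletal muscle, and separately of interstitial cells of Cajal, enteric neurons and enteric glia, were read beside these genes. Skeletal muscle markers had a median of 0.04 and a mean level of 4.81 to 4.91 on day 5 and 5.01 to 5.09 on day 7, so the range of day 7 lay above that of day 5. Of these 13 markers, 7 had a higher mean and 6 a lower one. Acta1 was the only marker entirely higher and had the largest difference, and the list mean without it was not computed. Acta1, skeletal alpha-actin, which smooth muscle and myofibroblasts can also make, measured 7.74, 8.40 and 8.33 on day 5 against 11.12, 10.28 and 9.10 on day 7, a difference of 2.01 ± 0.72, entirely higher. Interstitial cell of Cajal markers had a median of -0.02 (-0.04 to 0.004 over arrays left out), enteric neuron markers 0.03 (-0.06 to 0.08 over arrays left out) and enteric glia markers 0.03 (-0.04 to 0.10 over arrays left out). Only 5 Cajal cell markers were measured, 2 with a higher mean and 3 with a lower one, from -0.59 to 0.47. Among them Ano1 stood at -0.59 ± 0.40 and Etv1 at 0.47 ± 0.25, both with overlap. The pericyte values are given with the matrix genes. The part of these cells in the muscle genes was not tested. The plot of single genes shows 12 genes of each group.

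**Figure D4:**
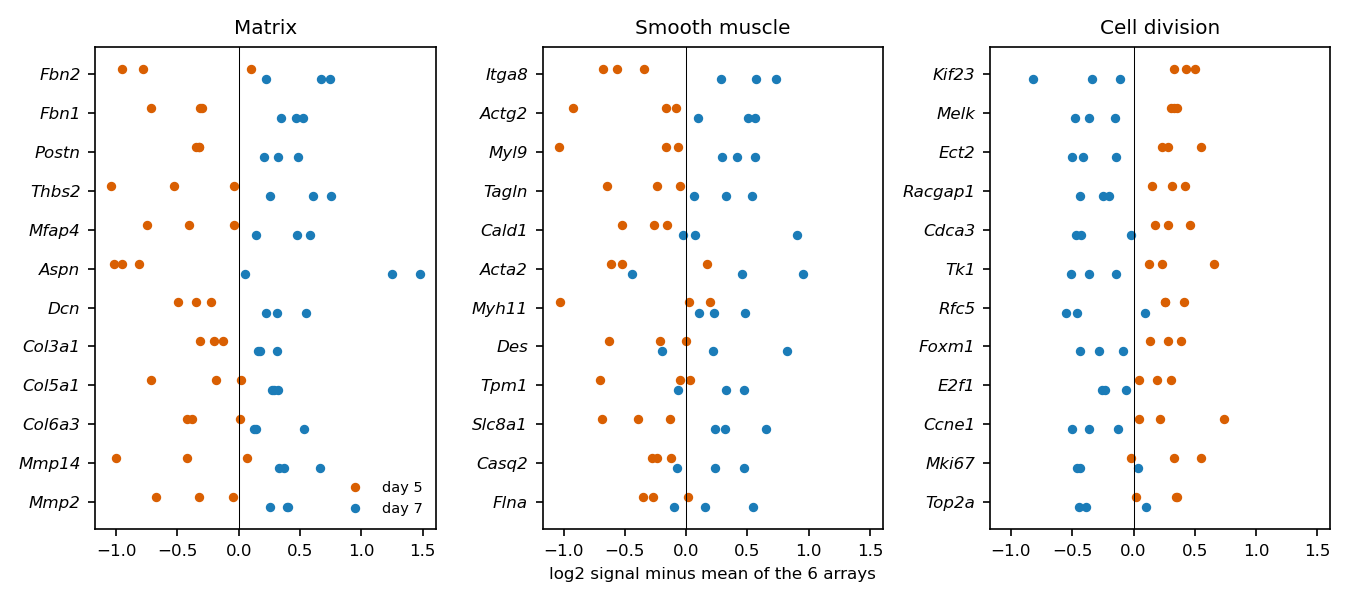
Array values of 12 named genes each of matrix, smooth muscle and cell division (horizontal axis, log2 signal minus the mean of the 6 arrays), day 5 in orange and day 7 in blue, 1 point per array. The days are apart in Postn, Col3a1, Itga8, Melk and Kif23 and overlap in Acta2, Myh11, Des, Mki67 and Top2a.

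The genes of smallest p whose days did not overlap included Itga8, both fibrillins and Kif23. Among the 12 higher, Ccl9, a chemokine that draws myeloid cells, measured 5.18, 5.04 and 5.85 on day 5 against 9.13, 8.36 and 8.22 on day 7. The difference of 3.22 ± 0.40, or 9.29-fold, came with an adjusted p of 0.0818, and its levels on days 2 and 14 were 4.78 ± 0.39 and 5.15 ± 0.83 (SD, n = 3), near those of day 5. Itga8 had the same course, with 4.08 ± 0.002 on day 2 and 4.09 ± 0.11 on day 14. Both were thus highest on day 7 among the 4 days. Tnfrsf11b, osteoprotegerin, a decoy for the ligand RANKL, measured 5.92, 5.69 and 6.21 on day 5 against 7.69, 6.91 and 6.79 on day 7, a difference of 1.19 ± 0.24. It stood at 6.67 ± 0.25 on day 2 and 6.97 ± 0.22 on day 14. Arhgap24, a brake on Rac, differed by 0.90 ± 0.19, Slc47a1, an organic cation exporter, by 1.02 ± 0.24, and Ltb4r, the receptor for the neutrophil attractant leukotriene B4, by 0.51 ± 0.12. The others were Fbn1 and Fbn2 (above), Cpq (0.66 ± 0.14), Tmem38b (0.66 ± 0.12), Cyp20a1 (0.64 ± 0.11) and Txndc16 (0.52 ± 0.11).

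Among the 12 lower, Sfn, the epithelial 14-3-3 protein sigma that restrains the cell cycle, measured 8.25, 8.60 and 8.76 on day 5 against 7.51, 7.49 and 7.67 on day 7, a difference of -0.98 ± 0.17. Tubgcp4, a subunit of the complex that seeds microtubules, measured 7.55, 7.21 and 7.66 on day 5 against 6.76, 6.55 and 6.60 on day 7, a difference of -0.84 ± 0.16. Kif23 is described above. Cyp51, a step of cholesterol synthesis, differed by -0.54 ± 0.11, Acsl5, which activates fatty acids in epithelium, by -0.54 ± 0.11, and Pla2g5, a secreted phospholipase, by -0.68 ± 0.13. The rest were Anxa8 (-0.82 ± 0.17), an annexin, Fmo5 (-0.75 ± 0.15), a monooxygenase, Trim46 (-0.72 ± 0.13), Leng1 (-0.62 ± 0.11), Cdc42ep5 (-0.62 ± 0.12) and Slc35f2 (-0.48 ± 0.09). Pla2g5 and Slc35f2 lay below the array medians in every array of both days. Of the 5 probe sets with an adjusted p under 0.1, those besides Itga8 and Ccl9 were named after their values were seen: 1 of Abca1, the cholesterol exporter (1.01 ± 0.14), 1 of Krt6c, a keratin of stressed epithelium (-0.73 ± 0.09), and 1389754_at, which carries no gene symbol (2.26 ± 0.30). The Abca1 probe set measured 3.55, 3.87 and 3.77 on day 5 against 4.89, 4.59 and 4.74 on day 7. That of Krt6c measured 3.79, 3.82 and 4.03 on day 5 against 3.13, 3.20 and 3.12 on day 7. All of these Abca1 and Krt6c values lay below the array medians. Both genes are read from another probe set of higher mean, and neither is among the 12 of its direction.

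Immune signals did not lie on one side. Of 29 chemokines and their receptors, 4 (13.8%, against 3.68% of all genes) lay entirely higher and 1 (3.45%, against 6.12%) entirely lower. Their median of 0.06 moved between -0.03 without day 7 replicate 1 and 0.25 without day 5 replicate 1. Cxcr2, the neutrophil receptor for Cxcl chemokines, measured 4.49, 4.52 and 4.35 on day 5 against 6.80, 5.09 and 5.22 on day 7, a difference of 1.25 ± 0.36, and Ccl4, a macrophage chemokine, differed by 1.00 ± 0.29. Both lay entirely higher. Of 31 cytokines and mediators, 3 (9.68%) lay entirely higher and 1 (3.23%) entirely lower, with a median of 0.31 that moved between 0.05 without day 7 replicate 1 and 0.51 without day 7 replicate 3. Il1r1, the receptor of interleukin 1, differed by 0.70 ± 0.19 and Il18, a cytokine of epithelium, by -0.68 ± 0.22, the first entirely higher and the second entirely lower. Of the 3 probe sets of Il1r1, 2 had a higher mean. Il1b, interleukin 1 beta, overlapped at 0.73 ± 0.53 and S100a8, a neutrophil alarmin, at 0.56 ± 0.82. Left-out arrays moved the difference of Il1b from 0.37 to 1.00, that of S100a8 from 0.15 to 1.00 and that of Cxcr2 from 0.71 to 1.56, with the lowest value of each without day 7 replicate 1. Of 26 interferon and antigen presentation genes, 0 lay entirely higher and 1 (3.85%) entirely lower, with a median of -0.28 that moved between -0.58 without day 5 replicate 2 and -0.03 without day 5 replicate 1. Mx2, an interferon-induced GTPase, ranged from 3.24 to 6.39 on day 5 alone, and Tap1, a peptide transporter, overlapped at -1.02 ± 0.42. Complement and coagulation genes had a median of 0.28, which moved between 0.15 without day 5 replicate 1 and 0.57 without day 5 replicate 2, with 0 of 21 entirely on either side.

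Epithelial transport and metabolism gave values on both sides of 0. Of 31 ion and water transport genes, 0 lay entirely higher and 5 (16.1%) entirely lower, with a median of 0.03 that moved between -0.18 without day 7 replicate 2 and 0.25 without day 7 replicate 1. In sign, 17 had a higher mean and 14 a lower one, with differences from -2.34 to 2.31. The 2 named here had the smallest p of the list. Aqp3, a water and glycerol channel, measured 9.91, 8.78 and 10.03 on day 5 against 8.22, 7.20 and 8.32 on day 7, a difference of -1.66 ± 0.42 (adjusted p 0.659). Clca4, a surface epithelial gene, differed by -1.17 ± 0.37, entirely lower. Enterocyte markers had a median of 0.17, between -0.10 without day 5 replicate 2 and 0.48 without day 5 replicate 1. Of 14 measured, 8 had a higher mean and 6 a lower one, with differences from -1.96 to 3.02. Among the lower ones, Ceacam1, a surface adhesion molecule, stood at -1.94 ± 0.62 with overlap. Krt20, the keratin of surface cells, stood at -0.86 ± 0.33, entirely lower. Glycolysis (-0.002), fatty acid oxidation (-0.08), citric acid cycle and respiratory chain (-0.07) and endoplasmic reticulum folding (-0.06) had medians near that of all genes, each of which changed sign when some of the arrays were left out in turn. Xbp1, a factor of secretory cells, lay entirely higher at 0.39 ± 0.10. Cs, citrate synthase (-0.34 ± 0.15), and Idh3a, isocitrate dehydrogenase (-0.59 ± 0.22), lay entirely lower.

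Set beside days 2 and 14, the matrix genes were highest on day 7. Relative to the mean of the 6 arrays, their list mean was -0.81, -0.23 and -0.61 on day 2 and -0.36, -0.87 and -0.81 on day 14, below all day 7 arrays. Col3a1 was 11.93 ± 0.38 on day 2 and 11.80 ± 0.41 on day 14 (SD, n = 3), and Fn1 11.45 ± 0.76 and 10.03 ± 0.14. Aspn stood at 7.72 ± 0.80 on day 2 and 8.26 ± 0.68 on day 14, against 6.54 ± 0.10 on day 5 and 8.39 ± 0.77 on day 7, and the arrays of days 7 and 14 overlapped. The muscle list stood at 0.15, 0.51 and -0.31 on day 2 and 0.26, -0.13 and -0.001 on day 14. Its day 7 values lay within the range of day 2, and its day 5 mean was the lowest of the 4 days. The division list stood at -0.04, 0.19 and 0.60 on day 2 and 0.18, 0.28 and -0.15 on day 14, and its day 7 mean was the lowest of the 4. Arrays of both those days overlapped day 7. Kif23 was 6.95 ± 0.05 on day 2 and 6.89 ± 0.27 on day 14. Comparisons that share day 5 or day 7 arrays are not independent, and these levels are a description.

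**Figure D5:**
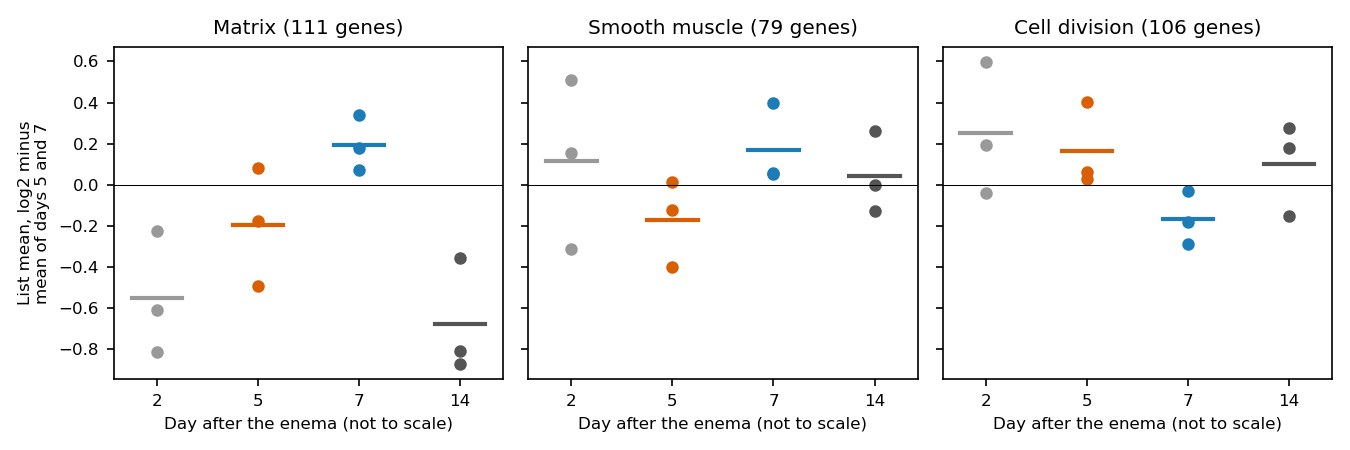
List means of the matrix, smooth muscle and cell division genes in each array of the 4 days after the enema (horizontal axis, days in order and not to scale; vertical axis, log2 signal minus the mean of the 6 arrays of days 5 and 7), 1 point per array with a bar at the mean of 3. The matrix mean is 0.20 on day 7 against -0.55, -0.20 and -0.68 on days 2, 5 and 14, and the division mean is -0.16 on day 7 against 0.25, 0.16 and 0.10.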

How the data were processed

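RNA of 18 rat colons was read on Affymetrix Rat Genome 230 2.0 arrays, 1 array per rat. The values are the authors' deposited table, normalized by the authors with affyPLM in Bioconductor, per the series design text. Version, background method and log base were not given in the sources used here, and the values were read as log2 from their range. The labels name no batch and no scan date.

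Of 31099 rows, 57 control probe sets were left out and 31042 were tested on the log2 values as deposited, with no filter on dim probe sets. limma 3.58.1 (R 4.3.3, lmFit and eBayes) was fitted to the 12 TNBS arrays of 4 days with 1 coefficient per day, so that all 4 days share 1 estimate of spread, and day 7 minus day 5 was tested with Benjamini-Hochberg adjustment and a threshold of 0.05. The script was tested on simulated data. Replicates are separate rats per the design text. A gene was read from its probe set of the highest mean over the 12 arrays. Platform annotation, which can be old, gave 1 symbol to 20826 probe sets, several to 436 (not used for genes) and none to 9780. This left 14217 genes, of which 4525 had more than 1 probe set.

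The 42 gene lists (974 entries, 873 measured) and the members named were chosen with earlier results of these data known, so list counts and medians are given beside those of all genes, with no test. Named were the 12 genes per direction of smallest p without overlap (symbols beginning LOC or RGD passed over), up to 5 genes of smallest p per matrix, muscle or cell cycle list, up to 2 per other list, and a panel of 20 known markers. Genes added after their values were seen are marked. Not every gene the rule gives is printed. Promoters are the 250 bases before the start in the RefSeq table of build GRCr8. Same-numbered arrays of days 5 and 7 correlated at -0.29, 0.01 and 0.19 in their deviations from the day means, so replicate numbers were not taken as pairs. Alternatives were other scalings, other arrays in the fit, filters on dim probe sets, other priors, array weights, a replicate block, 1 or all probe sets per gene, other thresholds and leaving out each array. Python 3.11.15, pandas 2.3.3 and matplotlib 3.10.9 were used for promoters and figures.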

Additional observations from a re-analysis of the deposited data

How the results depend on the processing

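The count of 0 probe sets called in each direction held with quantile normalization, median centring, only the 6 or the 9 nearest arrays, the lowest 25% or 50% of probe sets left out, 1 probe set per gene and an adjusted p under 0.01. It was 5 higher and 1 lower with all 18 arrays, 4 and 1 with a trended and robust prior, 5 and 3 with array weights, 4 and 1 at an adjusted p under 0.1, and 0 and 2 with the replicate block. Leaving out 1 array gave 0 to 5 higher and 0 to 2 lower, with 5 and 2 without day 7 replicate 2. With all 18 arrays Itga8 had an adjusted p of 0.00202 and Ccl9 of 0.002 (limma), and both also passed with the prior (0.0282 each) and with array weights (differences 1.11 and 3.03, adjusted p 0.0109 and 0.0278). Aqp3 passed with the replicate block (-1.66, adjusted p 0.0117). The block changed no other call of a named gene. The cause was not tested.

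With quantile normalization, members not overlapping and higher numbered 1 of 20 for collagen processing and 2 of 31 for matrix proteases. For the muscle cytoskeleton they numbered 2 of 33. On the deposited scale these 3 lists had 2, 4 and 4. With the mean over probe sets, basement membrane and collagen processing had 1 of 20 each, against 2 each with 1 probe set per gene. The share over all genes was not computed under these 2 settings. Leaving out each array gave 24 to 60 for all matrix lists, 14 to 24 for all muscle lists and 36 to 61 lower for cell division. By list it gave 7 to 13 for collagens, 2 to 6 for basement membrane, 4 to 8 for proteoglycans, 9 to 21 for elastic fibre, 2 to 12 for collagen processing, 4 to 11 for proteases, 3 to 6 for TGF-beta, 5 to 10 for contractile proteins, 5 to 10 for the cytoskeleton (median 0.20 to 0.46), 4 to 9 for channels, and lower 26 to 39 for mitosis, 10 to 22 for replication and 6 to 12 for G1 regulators. Outside the matrix, muscle and cell cycle lists, the skeletal muscle median was 0.08 and the mesothelial median 0.29 with the lowest 25% of probe sets left out, the skeletal muscle median 0.26 and the red blood cell median 0.77 with the lowest 50% left out, and the ribosome and polyamine median -0.08 with array weights. Filters on dim probe sets leave fewer members. Fewer arrays make non-overlap easier by construction.

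Of 2664 values of 168 named genes, 2645 kept their direction and side of the threshold and 12 turned, in 6 genes. The turned values were Tgfb2 (-0.23 to 0.13 over arrays left out; 0.05 with array weights, 0.13 without day 5 replicate 2), Epcam (-0.359 to 0.014; 0 without day 5 replicate 1, 0.01 without day 7 replicate 1), Pcna (-0.15 to 0.33; -0.04 and -0.06 without day 5 replicates 1 and 3, -0.15 without day 7 replicate 1), Timp1 (-0.16 to 0.52; -0.16 and -0.001 without day 5 replicates 1 and 3, -0.14 without day 7 replicate 1), Jchain (-0.16 to 1.48; -0.16 without day 5 replicate 3) and Cdkn1a (-0.59 to 0.08; 0.08 without day 7 replicate 2). The cause was not tested. Precision is limited by having 3 arrays per day, and the median standard error of a difference was 0.151.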

Other observations

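The remaining marker lists are given as values. Endothelial markers had a median difference of 0.10, which moved between -0.24 without day 5 replicate 1 and 0.29 without day 7 replicate 2. Of these 15 markers, 1 (6.67%, against 3.68% of all genes) lay entirely higher on day 7. Enteroendocrine markers had a median of 0.43, which moved between 0.09 without day 7 replicate 2 and 0.40 without day 5 replicate 2. Of these 10 markers, 1 (10%, against 3.68% of all genes) lay entirely higher and 1 (10%, against 6.12%) entirely lower. Goblet cell markers had a median of -0.04, which moved between -0.26 without day 7 replicate 3 and 0.21 without day 5 replicate 1. The median was 0.03 for mast cell and eosinophil markers and moved between -0.07 without day 5 replicate 3 and 0.12 without day 7 replicate 1. It was 0.03 for mesothelial markers and moved between -0.03 without day 7 replicate 3 and 0.26 without day 7 replicate 1. It was 0.10 for red blood cell markers and moved between 0.05 without day 7 replicate 2 and 0.16 without day 7 replicate 3, with 0 genes of these 3 lists or of the goblet list entirely on either side.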
